A study of Mus musculus with 5 samples.

Results

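The interferon regulatory factor (IRF) family comprised 8 genes here, Irf1, Irf2, Irf3, Irf4, Irf5, Irf7, Irf8 and Irf9, read by 9 of the 55681 probes of a 1-colour Agilent microarray. A probe was taken as a member's where its RefSeq transcript accession mapped to one of those symbols, without regard to its signal. All 8 genes had a probe well above background (the scanner software's flag) on all 5 arrays and entered the comparison of 11997 genes. The cells were natural killer T (NKT) cells, T cells whose receptor recognises lipid antigens on CD1d, sorted from the thymus by CD3e and by binding of a CD1d tetramer. The 2 IL15ko arrays came from mice with the genotype IL15-/-, which lack the cytokine interleukin-15, and the 3 wild-type arrays from mice labelled wt. Both groups had the C57BL/6 background and no treatment is named. Each sample came from 10 pooled thymi, so that no value belongs to a single animal. Ages and sexes of the mice are not given in the sources used here, nor is the way the IL15 allele was made. Nothing in the labels says that samples of 1 group came from separate pools, so the p-values cover only the variation among these samples, which could be technical.

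IRF proteins share a DNA-binding domain that recognises GAAA repeats in the promoters of interferon-responsive genes. IRF3 and IRF7 switch on interferon genes after viral sensing, and IRF9 joins STAT proteins in the complex that reads type I interferon signals. IRF1 is an activator induced by interferon-gamma, and IRF2 occupies many of the same sites as its antagonist. IRF4 and IRF8 bind weakly alone and act with partners such as PU.1 or the BATF and JUN proteins. In T cells, IRF4 is induced by antigen-receptor signals and is needed for several effector programmes, while IRF5 and IRF8 are best known from myeloid and B cells. Mice lacking IRF1 have few NK and NKT cells, and IRF1 is known to promote IL-15 production by stromal cells.

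Signals are given below as a percentage of each array's 75th percentile, computed from the 18519 probes that exceeded background on each of the 5 arrays. Differences are log2 differences, IL15ko minus wild-type, with limma's moderated standard error (SE) and Benjamini-Hochberg adjusted p over all 11997 genes, and a call is an adjusted p under 0.05. The share of probes well above background was 45.2% and 33.9% on IL15ko 1 and 2, IL15ko 2 being the dimmest array, against 44.6% to 49.6% on the wild-type arrays. Wild-type 1 and 2 lay closer together (robust SD of their log2 difference over the tested genes 0.17) than the IL15ko pair (0.38) or the other wild-type pairs (0.34 and 0.38). The Il15 probe gave no signal well above background in either group and so gives no check of the labels. Sex-linked genes, added after values were seen, differed between the groups. Xist, the RNA that silences an X chromosome in female cells, stood at 23.6% and 28.5% on the IL15ko arrays and did not exceed background on the wild-type arrays. The Y-linked genes Eif2s3y and Ddx3y, measured on all 5 arrays, were 3.93-fold and 2.56-fold lower in IL15ko, and Uty exceeded background on the 3 wild-type arrays alone. The sex makeup of the pools and the genotype therefore cannot be told apart in any value below. In a sorted bulk sample, fewer cells of a type and less RNA per cell cannot be told apart either.

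In NKT cells of IL15ko mice, Irf4 was higher and Irf1 was lower, and the other 6 family members did not pass the test. At this threshold limma called 3.75% of all tested genes higher, 3.58% lower and 7.33% in either direction. With 8 members, 1 call in each direction is too few to set against those shares. Both IL15ko arrays lay above every wild-type array in 2 members (Irf4 and Irf2) and below every one in 4 (Irf1, Irf5, Irf8 and Irf9). That made 6 of 8 members without overlap, against 47.2% of all tested genes (25.1% above and 22% below). The log2 differences of the members ran between -0.77 and 1.70, with a median of -0.38, against a median of 0.01 over all tested genes.

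**Figure D1:**
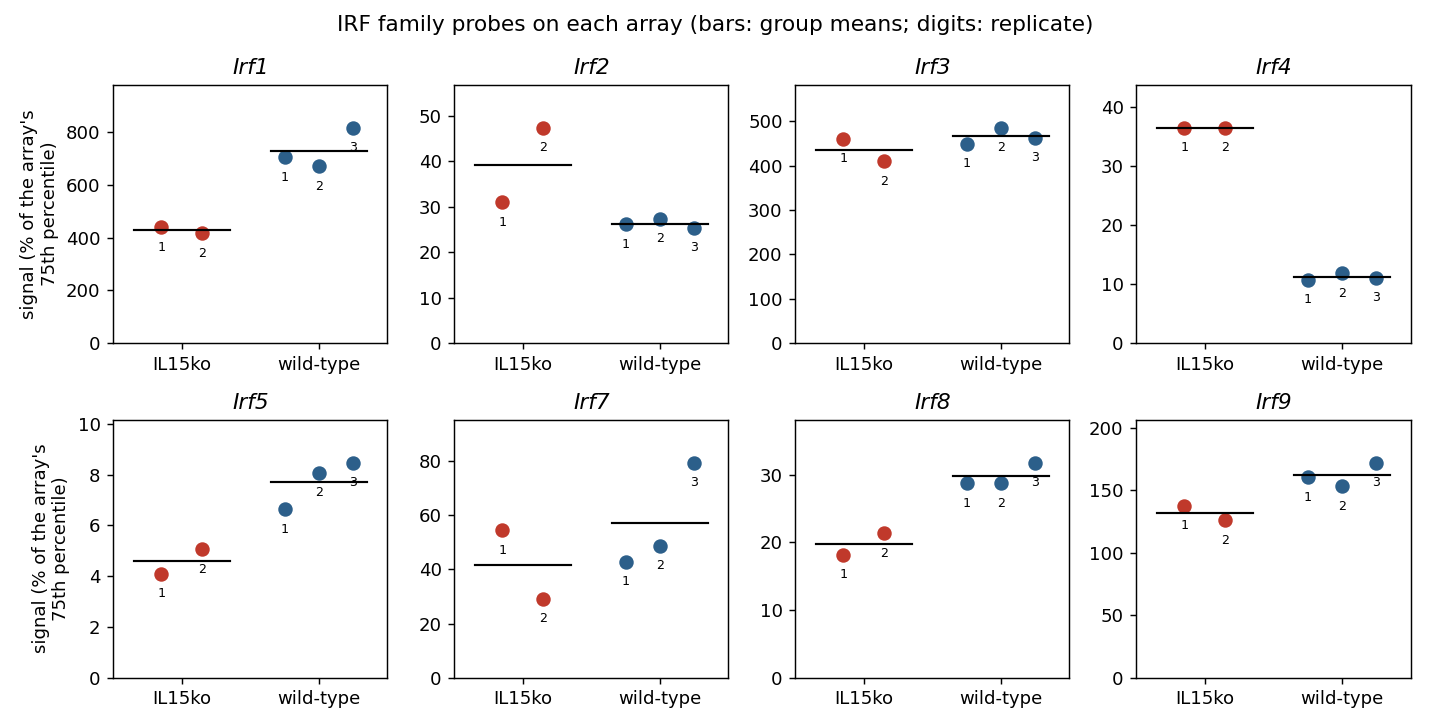
Signal of the 8 IRF genes on each array, as a percentage of the array's 75th percentile on a linear axis that starts at 0 and differs between panels. Each point is 1 array with its replicate number below it (IL15ko red and on the left, wild-type blue), and black bars are group means. Both IL15ko arrays lie above all wild-type arrays for Irf4 and Irf2, and below them for Irf1, Irf5, Irf8 and Irf9.

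Irf4, the member tied to antigen-receptor signalling in T cells, had a signal of 36.5% on IL15ko 1 and 36.5% on IL15ko 2, against 10.8%, 11.8% and 11.1% on wild-type 1, 2 and 3. The group means were 36.5% ± 0.008 in IL15ko (SD, n = 2) and 11.2% ± 0.56 in wild-type (SD, n = 3). The SD of 0.008 comes from 2 values that nearly coincide and does not measure the spread of IL15ko samples. Over the tested genes, the log2 difference of the IL15ko pair had a robust SD of 0.38. The difference was 1.70 ± 0.12 (SE), or 3.25-fold higher in IL15ko with a 95% confidence interval of 2.62 to 4.03, and the limma adjusted p was 0.00784. By p, Irf4 ranked 35 among the 11997 tested genes. The difference lay between 1.47 and 1.74 in 17 alternatives and was called in 14 of them. The call was lost without wild-type 1 (adjusted p = 0.0607), where the log2 difference was 1.67, after normexp background correction (0.058) and with no filter on dim probes (0.0812). By the root mean square difference of log2 values centred on each gene's mean over the 5 arrays, the genes most like Irf4 among 9476 included Cntnap1 (0.045), an axonal adhesion gene, and Tlr1 (0.054), a Toll-like receptor. Their log2 differences were 1.66 and 1.67. With 5 arrays in 2 groups, this likeness reflects mostly the difference between the groups.

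Irf1, the interferon-gamma-induced activator, had a signal of 439.6% and 416% on the IL15ko arrays, against 705%, 671% and 817% on wild-type 1, 2 and 3. Every wild-type array was above both IL15ko arrays, and wild-type 3 was the highest. The difference was -0.77 ± 0.14, or 1.70-fold lower in IL15ko (95% confidence interval 1.32 to 2.19), with a limma adjusted p of 0.0423, close to the threshold. Its size varied little, between -0.83 and -0.69 over 17 alternatives, but it was called in 5 of them, and in 0 of the 5 that left out an array (adjusted p between 0.0575 and 0.165). The other Irf1 probe, designed for another transcript, had raw signals of 4.06 and 3.61 in IL15ko and 3.97, 8.99 and 26.1 in wild-type. It was well above background on wild-type 3 alone and was not tested. The genes most like Irf1 across the 5 arrays were Cxcr6 (0.019), a chemokine receptor of NKT cells with a log2 difference of -0.76, Apol7b (0.034) with -0.83, and Emid1 (0.040) with -0.78.

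Irf2, the antagonist of IRF1 at shared sites, had a signal of 31.0% and 47.4% on the IL15ko arrays, against 26.1%, 27.3% and 25.4% on the wild-type arrays. The IL15ko arrays were both higher but far from each other, and the wild-type arrays nearly coincided. The log2 difference of 0.55 ± 0.21 did not pass (limma adjusted p = 0.173), and it was 0.85 without IL15ko 1 and 0.24 without IL15ko 2. The log2 ratio of Irf1 to Irf2 within an array does not depend on scaling between arrays. It averaged 3.48 ± 0.49 in IL15ko (SD, n = 2) and 4.80 ± 0.20 in wild-type (n = 3), a difference of -1.31 with no overlap (exact two-sided permutation p = 0.1, the smallest that 2 arrays against 3 allow). Among all 28 pairs of members, the ratios of 19 were without overlap. The shift joins the lower Irf1 with an Irf2 difference that did not pass.

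Among the factors of viral sensing, Irf3 varied least between groups. Its signal was 460.3% and 409% in IL15ko, against 449.6%, 485% and 463% in wild-type, and the groups overlapped. The log2 difference was -0.10 ± 0.13 (limma adjusted p = 0.639), and the unadjusted 95% interval of -0.43 to 0.23 leaves room for a small change in either direction. Irf7, which interferon itself induces, was the most variable member. It had 54.4% and 29.1% in IL15ko, against 42.9%, 48.8% and 79.5% in wild-type, so that the spread within each group was as large as the gap between their means. The log2 difference of -0.47 ± 0.38 did not pass (limma adjusted p = 0.466), and it was -0.92 without IL15ko 1 and -0.02 without IL15ko 2.

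Irf9, the DNA-binding part of the complex that reads type I interferon signals, had 138% and 126% in IL15ko, against 161%, 153% and 172% in wild-type. Both IL15ko arrays were lower, by a small margin. The log2 difference was -0.30 ± 0.13, which did not pass (limma adjusted p = 0.215), and it lay between -0.36 and -0.23 in the 17 alternatives.

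Irf8 and Irf5, the members best known from myeloid and B cells, were both lower on each IL15ko array than on any wild-type array but did not pass the test. Irf8 had 18.2% and 21.3% in IL15ko, against 28.8%, 28.7% and 31.8% in wild-type, with a log2 difference of -0.59 ± 0.14 (1.51-fold lower, limma adjusted p = 0.0699). Irf5 was the dimmest member, at 4.10% and 5.06% in IL15ko against 6.63%, 8.07% and 8.47% in wild-type, with a log2 difference of -0.75 ± 0.18 (1.69-fold lower, adjusted p = 0.0696). When only genes well above background on all 5 arrays were tested, both passed (adjusted p = 0.0425 for Irf8 and 0.0415 for Irf5). The log2 difference of Irf5 was -0.45 in the authors' deposited table and -0.06 after normexp correction, both of which start from the spot median in place of the processed signal.

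**Figure D2:**
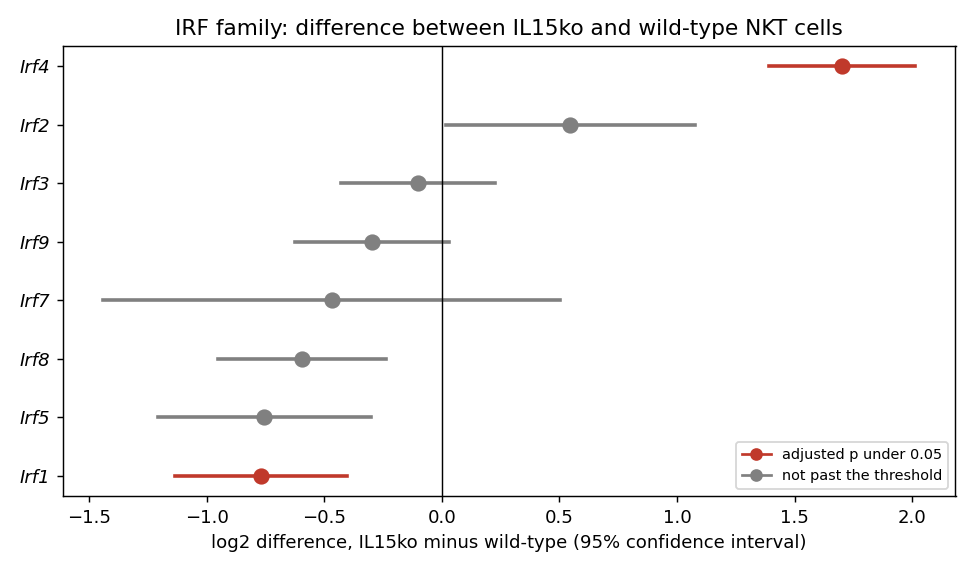
Log2 difference of each IRF gene (points, IL15ko minus wild-type) with its unadjusted 95% confidence interval (lines), ordered by size. Irf4 at 1.70 and Irf1 at -0.77 passed an adjusted p of 0.05 (red), and the other 6 genes did not (grey). The interval of Irf7 is the widest.

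Ratios of Irf4 to the other members within an array largely restate its own difference, free of the scaling between arrays. The log2 ratio of Irf1 to Irf4 shifted by -2.47 and that of Irf2 to Irf4 by -1.16, and the other 5 ratios with Irf4 lay between these in size. For Irf4 and Irf8, close relatives that share partners, the log2 ratio averaged 0.89 ± 0.16 in IL15ko (SD, n = 2) and -1.41 ± 0.12 in wild-type (SD, n = 3), a shift of 2.30 (exact two-sided permutation p = 0.1). The ratio of Irf1 to Irf5 was nearly equal in both groups, at 6.55 ± 0.27 in IL15ko and 6.57 ± 0.18 in wild-type, and that of Irf5 to Irf8 shifted by -0.16 with overlap. The zero point of such a ratio depends on the probes, so only its shift between groups can be read.

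**Figure D3:**
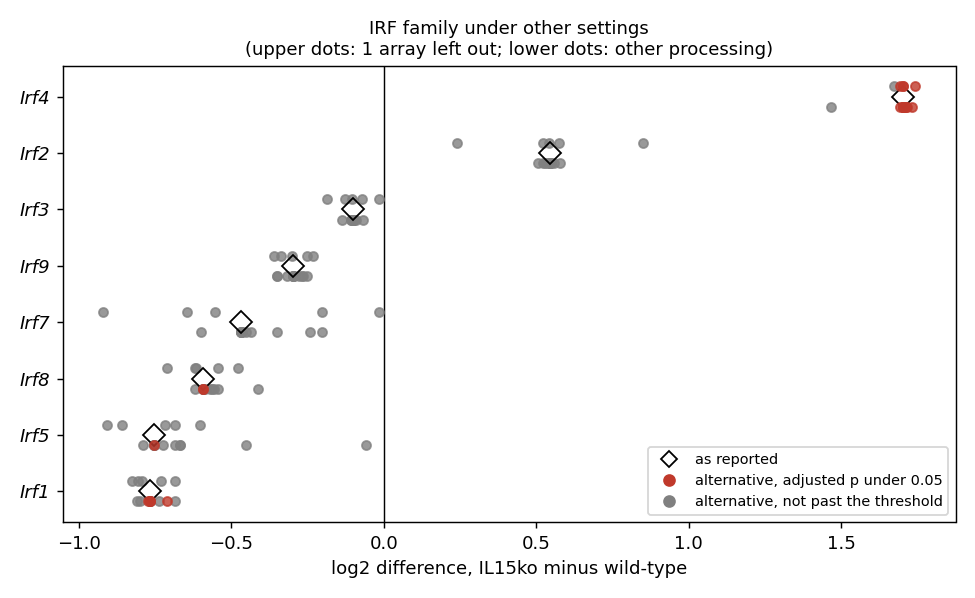
Log2 difference of each IRF gene as reported (diamonds) and under 17 alternatives (dots, red where the adjusted p was under 0.05), with the 5 alternatives that leave out 1 array drawn above the 12 that change the processing. No member changed sign. Irf4 stays between 1.47 and 1.74, Irf1 between -0.83 and -0.69, and Irf5 and Irf7 reach close to 0.

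The promoter windows of the members are shown because Irf4 and Irf1 moved in opposite directions and because IL-15 signals through STAT5, whose sites have the form TTCNNNGAA. RefSeq windows of 300 bases, 250 before and 50 after a gene start (GRCm38.p6), were found for all 8 members, 11 windows in all. They were searched on both strands for TTCNNNGAA (its own reverse complement) and for the interferon response element (GAAA, any 2 bases, GAAA). The third motif was 1 fixed form of the NF-kB site, with no variable base. Capitals mark matches in the windows of the called genes Irf4 and Irf1 and of the other 2 genes with a match, Irf2 and Irf8.
Irf4 promoter (GRCm38.p6, chr13:30748983-30749282, plus strand): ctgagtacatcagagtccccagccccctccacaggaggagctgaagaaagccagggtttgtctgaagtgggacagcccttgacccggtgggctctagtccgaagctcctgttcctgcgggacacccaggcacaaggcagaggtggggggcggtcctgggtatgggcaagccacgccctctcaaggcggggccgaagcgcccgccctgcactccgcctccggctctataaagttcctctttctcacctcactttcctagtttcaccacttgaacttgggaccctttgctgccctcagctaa
Irf1 promoter (GRCm38.p6, chr11:53769764-53770063, plus strand): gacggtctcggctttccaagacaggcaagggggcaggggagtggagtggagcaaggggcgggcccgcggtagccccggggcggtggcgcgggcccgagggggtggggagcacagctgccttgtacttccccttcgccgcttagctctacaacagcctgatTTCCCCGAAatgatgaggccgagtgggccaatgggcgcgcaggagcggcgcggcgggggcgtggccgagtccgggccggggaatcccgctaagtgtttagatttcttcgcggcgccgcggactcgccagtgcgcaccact
Irf2 promoter (GRCm38.p6, chr8:46739495-46739794, plus strand): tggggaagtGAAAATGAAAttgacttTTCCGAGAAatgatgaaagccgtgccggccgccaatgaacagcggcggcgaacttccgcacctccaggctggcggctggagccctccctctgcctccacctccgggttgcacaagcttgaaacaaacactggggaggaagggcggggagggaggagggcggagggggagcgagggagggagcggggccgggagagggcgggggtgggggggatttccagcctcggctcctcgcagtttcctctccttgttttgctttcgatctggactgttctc
Irf8 promoter (GRCm38.p6, chr8:120736108-120736407, plus strand): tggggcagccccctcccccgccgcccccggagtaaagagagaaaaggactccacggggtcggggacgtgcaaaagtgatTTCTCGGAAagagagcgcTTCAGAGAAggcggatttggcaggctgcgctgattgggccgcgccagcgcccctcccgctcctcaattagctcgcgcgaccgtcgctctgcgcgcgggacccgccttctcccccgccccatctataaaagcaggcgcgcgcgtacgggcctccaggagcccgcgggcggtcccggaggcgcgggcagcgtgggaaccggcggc
The Irf4 window held none of the 3 motifs as searched. The first of the 2 Irf1 windows held 1 STAT-type match, TTCCCCGAA, starting 90 bases before the gene start (position -90), and the other window held none. The first Irf8 window held 2, TTCTCGGAA at -171 and TTCAGAGAA at -153. Irf2 held TTCCGAGAA at -224 and, at -241, GAAAATGAAA, the only match to the interferon response element as searched in these windows. STAT-type matches were thus present in 3 of the 11 windows, against 8.3% of all 32851 windows, and the interferon response element in 1 of the 11, against 3.44%. The fixed form of the NF-kB site was in 0 members and in 0.155% of all windows. Variant forms of that site were not searched, so their absence from the members cannot be read from this. Of the 3 genes with a STAT-type match, Irf1 was called lower, Irf8 was lower without passing and Irf2 was higher without passing. A match is a run of letters, and binding was not measured.

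Upstream of the family, the 2 receptor chains for interferon-gamma were called in opposite directions. Of 16 tested interferon receptor and JAK-STAT genes, 1 was called higher and 2 lower, and the other 13 missed the threshold, with a median log2 difference of -0.16. Ifngr1, the ligand-binding chain of the interferon-gamma receptor, was 4.55-fold lower, at 95.9% and 136% in IL15ko against 567%, 573% and 431% in wild-type (limma adjusted p = 0.0126). Ifngr2, its signalling chain, was 3.23-fold higher, at 21.6% and 25.4% in IL15ko against 8.25%, 8.18% and 5.64% in wild-type (adjusted p = 0.0200). Il10rb, a chain shared by the IL-10 and type III interferon receptors, was 2.23-fold lower (adjusted p = 0.0276). The type I receptor chains Ifnar1 and Ifnar2 had log2 differences of -0.14 and -0.19 and did not pass, nor did Stat2, a partner of IRF9, at 0.13. Those 3 calls in 16 genes stand beside 7.33% called in either direction over all genes. Of 21 tested genes that act upstream of IRF3, IRF5 and IRF7, 1 was called higher and 0 lower. It was Ikbke, a kinase that phosphorylates IRF3 and IRF7, which was 1.99-fold higher, at 34.1% and 31.3% in IL15ko against 15.4%, 14.1% and 20.3% in wild-type (adjusted p = 0.0472). Its relative Tbk1 had a log2 difference of 0.10 ± 0.20.

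Partners and regulators of IRF proteins showed no call. Of 26 tested, limma called 0, while 4 were higher and 7 lower at an unadjusted p under 0.05, with a median log2 difference of -0.19. Over all tested genes, 27.5% had an unadjusted p under 0.05. The log2 difference of Batf, the partner through which IRF4 binds with JUN proteins, was 0.36 ± 0.12 (adjusted p = 0.14), and Junb and Jun had -0.56 and -0.53 with overlap between the groups. Tcf3, which encodes E2A proteins that can pair with IRF4, had 0.69 ± 0.14 (adjusted p = 0.0537), while its other probe had 0.27. Spi1, which encodes PU.1, was among the 3 partner genes that did not exceed background in either group.

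Among the targets of the family, the interferon-gamma and IRF1 list held calls and the interferon-stimulated list held none. Of 35 interferon-stimulated genes, each measured on the 5 arrays, limma called 0. At an unadjusted p under 0.05, 4 were higher (Zbp1, Dhx58, Eif2ak2 and Oas2, with log2 differences between 0.38 and 0.51) and 1 lower (Isg20, -0.52), which made 5 of 35 against the 27.5% of all tested genes, and the median was -0.06. Of 27 tested interferon-gamma and IRF1 targets, 3 were called lower and 0 higher, and the other 24 missed the threshold, with a median of -0.24. Over all tested genes, 3.58% were called lower. At an unadjusted p under 0.05, 9 were lower and 1 higher, which made 10 of 27, against the 27.5% of all tested genes. The called genes were H2-K1, an MHC class I gene (2.30-fold lower, adjusted p = 0.0163), Gbp5, a guanylate-binding protein (1.87-fold, adjusted p = 0.0237), and Nlrc5, the transactivator of MHC class I genes (1.60-fold, adjusted p = 0.0370). H2-K1 is near-identical to other class I genes, so its probe may bind several of them. The log2 difference of H2-D1 was -0.74 ± 0.17 (adjusted p = 0.0646), whereas B2m, the shared light chain, had 0.17 and Psmb8, an immunoproteasome subunit, 0.47, neither past the threshold.

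Genes of effector programmes linked to IRF4 in T cells were higher in part, on a list chosen with earlier results of these data known. At an unadjusted p under 0.05, 6 of the 11 tested were higher and 2 lower, against 27.5% of all tested genes in either direction. Of the 11, 5 were called higher and 0 lower, and the other 6 missed the threshold, with a median of 0.66. Over all tested genes, 3.75% were called higher. Among the 5 were Icos, a costimulatory receptor (1.96-fold, limma adjusted p = 0.0177), the chemokine receptor gene Ccr6 (2.55-fold, adjusted p = 0.0329), and the cytokine genes Il13 (2.33-fold, adjusted p = 0.0381) and Il21 (2.22-fold, adjusted p = 0.0488). Il4 had 0.66 ± 0.17 (adjusted p = 0.0867), Gata3 0.14 ± 0.20, and Prdm1, which encodes the IRF4-induced repressor Blimp-1, -1.03 ± 0.28 (adjusted p = 0.0895), opposite in sign to Irf4. Of the 12 genes called on these 6 lists, 1 kept its call when IL15ko 1 was left out, 2 when IL15ko 2 was, 0 when wild-type 1 or wild-type 2 was, and 9 when wild-type 3 was. Of the 12, 0 kept it after normexp correction, with no filter on dim probes or with wild-type 1 and 2 averaged.

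**Figure D4:**
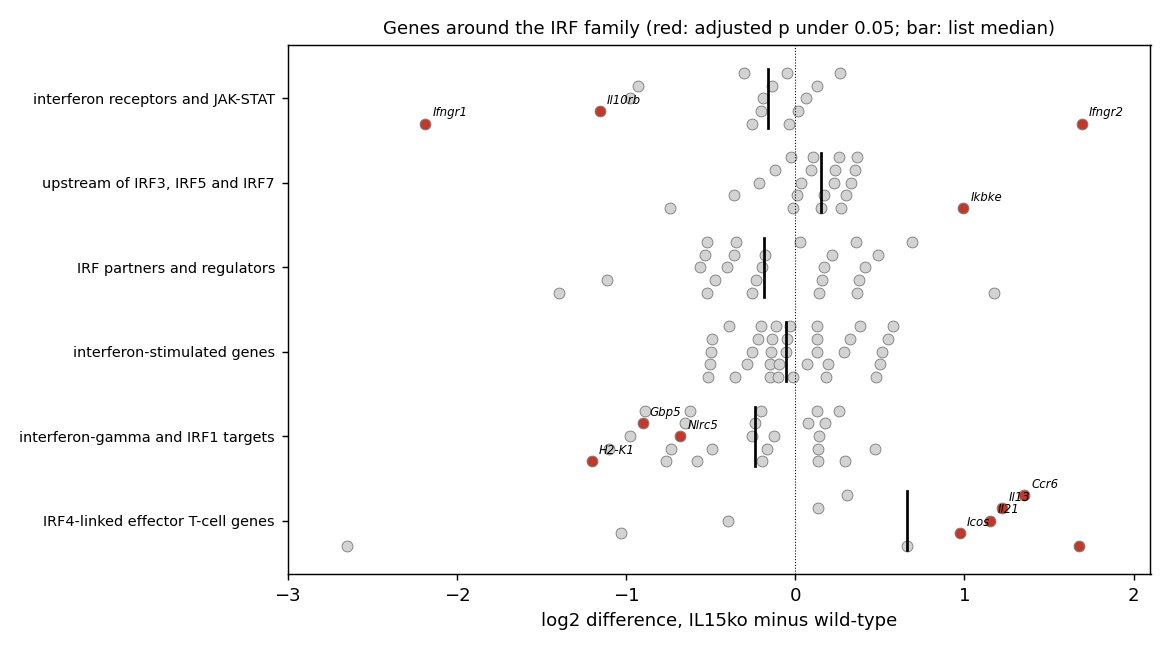
Log2 difference (IL15ko minus wild-type) of each tested gene on 6 lists around the IRF family, with called genes in red, most of them named, and a black bar at each list's median. Interferon-stimulated genes spread around a median of -0.06 with no call, and the IRF4-linked list has 5 calls, all higher.

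Within each group, Irf7 and part of the interferon-stimulated genes had the same order of arrays. Irf7 was highest on wild-type 3 among the wild-type arrays and higher on IL15ko 1 than on IL15ko 2. The same held for 19 of the 35 interferon-stimulated genes (54.3%), against 26.6% of all tested genes, and also for 11 of the 21 upstream genes (52.4%) and 13 of the 27 interferon-gamma and IRF1 targets (48.1%). Wild-type 3 was the highest wild-type array for 28 of the 35 (80%), against 42.1% of all tested genes. Centred on each gene's own mean, the median interferon-stimulated gene lay at 0.08 on IL15ko 1 and -0.06 on IL15ko 2, and at -0.06, -0.08 and 0.21 on wild-type 1, 2 and 3. Irf7 lay at 0.17 and -0.73, and at -0.17, 0.01 and 0.72. These are descriptions of 5 arrays, and the pattern was noticed in the data it describes.

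**Figure D5:**
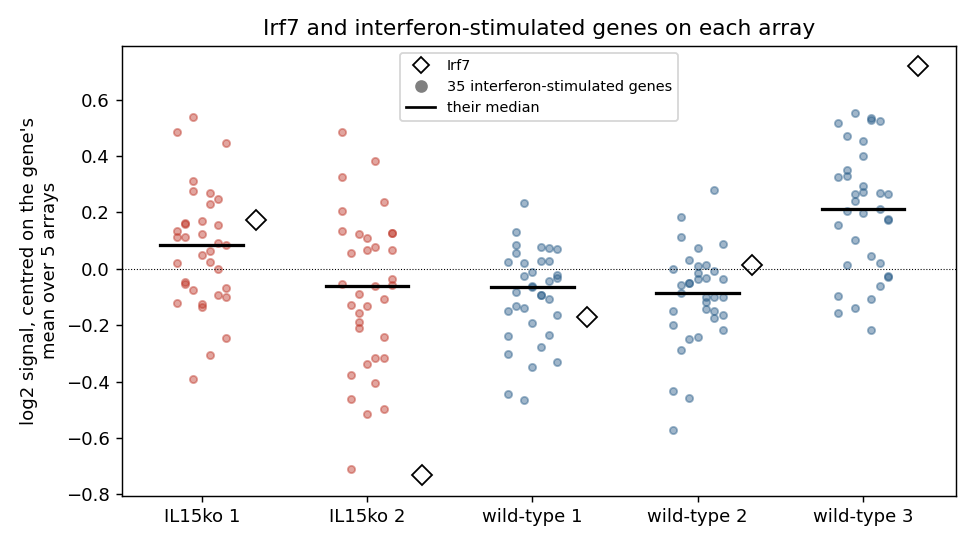
Log2 signal of 35 interferon-stimulated genes (dots) and of Irf7 (diamonds) on each array, centred on each gene's mean over the 5 arrays, with a black bar at the median of the 35. Irf7 is highest on wild-type 3 (0.72) and lowest on IL15ko 2 (-0.73), and the median of the 35 is highest on wild-type 3 (0.21).

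Since Irf5, Irf7 and Irf8 are abundant in other leukocytes, markers of those cells were read on the same arrays. Of 9 tested NKT and T-cell markers, 2 were called higher and 0 lower, with 5 positive and 4 negative log2 differences. Most were bright in both groups, with Cd3e at 1711% and 1922% in IL15ko against 1809%, 1958% and 1877% in wild-type. Cd247 was dim, at 41.8% and 14.1% in IL15ko against 26.4%, 28.2% and 53.2% in wild-type. Cd3g (-0.77) and Cd3d (-0.26) were lower without passing, and Cd5 was called higher (1.58-fold, limma adjusted p = 0.0398). Zbtb16, which encodes the NKT lineage factor PLZF, was 2.83-fold higher in IL15ko. Of 8 B-cell markers, Cd79a, Ms4a1, Pax5 and Ebf1 did not exceed background in either group. Cd79b, a chain of the B-cell receptor complex, and Blk, a kinase of B cells, did so on the 5 arrays, with both IL15ko arrays above every wild-type array (1.89-fold and 2.16-fold, limma adjusted p = 0.0881 and 0.172), and Cd22 did so with overlap. The summed signal of the list was 37.8% and 37.6% in IL15ko against 25.9%, 27.9% and 24.0% in wild-type. Of 10 dendritic-cell markers, Itgax, Flt3, Xcr1, Clec9a and Clec10a did not exceed it either. Of the 5 that were tested, Ccr9, also a thymocyte marker, was called higher (3.44-fold, limma adjusted p = 0.0088). The other 4, Siglech among them, had negative log2 differences and did not pass. The summed signal of the dendritic-cell list was 3462% and 4486% in IL15ko against 4743%, 5103% and 3374% in wild-type, nearly all of it from the Siglech probe. That probe read above Cd3e on every array, while Tcf4 on the same list read between 2.91% and 5.31%. Whether it reads Siglech alone was not tested, so the sum gives no measure of dendritic cells. Of 7 macrophage markers, Adgre1, Lyz2, Fcgr1 and Mertk did not exceed background in either group and Cd14 did so on a single wild-type array, with summed signals of 458% and 1061% in IL15ko against 433%, 593% and 410.2% in wild-type, nearly all of it from the probe of Itgam, an integrin chain of myeloid and NK cells. Csf1r, the receptor of the macrophage growth factor, had 16.2% and 7.10% in IL15ko against 45.3%, 79.6% and 39.6% in wild-type and did not pass (limma adjusted p = 0.0508), and its other probes had log2 differences of -0.81 and 0.28.

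NK-cell markers were lower in IL15ko, the direction of Irf1. All 5 tested NK-cell markers were called lower, and their list's summed signal was 397% and 530.2% in IL15ko against 2613%, 2517% and 2652% in wild-type. Some of these genes are also expressed by mature NKT cells, and the 2 sources cannot be told apart here. Of the untested NK-cell markers, Ncr1 exceeded background in neither group and Eomes did on a single wild-type array. Of the double-positive thymocyte markers, Rag1, Rag2, Ptcra, Cd8a and Cd8b1 did not exceed background in either group. Ccr9 (3.44-fold) and Themis (2.59-fold) were called higher, in the direction of Irf4. Themis was dim, between 3.22% and 11.6%, and a second Themis probe, well above background on 2 arrays, gave 0.49. Cd4 (0.87, limma adjusted p = 0.0531) and Dntt (0.08 ± 0.78, with overlap) did not pass, and a second Cd4 probe gave 0.18. Summed signals of the list were 469.6% and 507% in IL15ko against 223%, 240.2% and 198% in wild-type. Most of each sum came from Cd4 and Ccr9. The part of the B-cell, NK-cell and thymocyte markers in the IRF values was not tested.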

How the data were processed

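Gene expression was measured in 2 IL15ko and 3 wild-type samples of sorted thymic NKT cells, grouped by their titles, with 1 array each. Per the file headers, the deposited scanner output consists of spot intensities on a linear scale, made with Agilent Feature Extraction 10.7.1.1, background-subtracted and detrended within each array and not scaled between arrays. Limma appears in the submitters' processing notes without settings. Set against the scanner output, intensities in the authors' deposited table equal spot median less local background median, with a constant added on each array for a reason that is unknown, and with no scaling. Its column medians over the probes were 26.4 and 16.2 in IL15ko and 27.2, 24.6 and 29.0 in wild-type. With the 5 arrays on 1 slide, neither slide nor scan could be tested as a batch. No spot was saturated.

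Controls and outlier spots were dropped and repeated spots averaged. Values are log2 processed signals from which the 75th percentile of that array was subtracted, taken over probes that exceeded background on all 5 arrays. Probes were named through their RefSeq accession (26425 of 55681 with 1 symbol, 29256 unnamed), each gene by its brightest probe, and genes above background on 2 or more arrays entered a fit with limma 3.58.1 in R 4.3.3 (3 residual and 2.28 prior degrees of freedom), which was checked on simulated data. The number of arrays limits the precision. The planned normexp alternative used the spot median, since the files used here hold no spot mean, and protein sequences were not analysed here. The members and gene lists were chosen with earlier results of these data known, and the sex-linked and IL-15 lists after values were seen. Named genes are all members, the leading, called or count-describing genes of each list, the defining markers, and the 3 genes most like each called member, except a few genes that are not reported here. Alternatives changed background correction, scaling, filter, probe choice, variance prior, array weights, a replicate block, and left out arrays.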

Additional observations from a re-analysis of the deposited data

How the results depend on the processing

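Of the 8 members, none changed sign in any of the 17 alternatives, and Irf2, Irf3, Irf7 and Irf9 were not called in any of them. Over all genes, 450 were called higher and 429 lower. Normexp background correction with an offset of 50 left 0 higher and 1 lower, and it moved the median log2 difference of all genes to 0.22. No filter on dim probes, which added genes at background, left 0 and 3 and moved that median to 0.24. Both gave 0 members higher and 0 lower, with Irf4 at 1.47 (adjusted p = 0.058) and 1.70 (0.0812) and Irf1 at -0.80 (0.126) and -0.77 (0.201). Testing only genes well above background on all 5 arrays gave 710 higher, and 3 members lower, with Irf5 at -0.75 and Irf8 at -0.59 now called. A trended, robust variance prior gave 820 and 695 genes and 2 members lower, with Irf8 at -0.59 called. Wild-type 1 and 2 averaged into 1 sample gave 34 and 67 genes, and 0 members lower (Irf1 -0.81).

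Irf1 was not called, leaving 0 members lower, with the 75th percentile over all probes (-0.74), the median (-0.77) or quantile normalization (-0.77). The replicate number as a block gave 138 and 241 genes and 0 members lower, with Irf1 at -0.69. Irf4 remained called in it (1.69, adjusted p = 0.0393), as did 3 of the 12 list genes. The labels share numbers but not pools. The numbers were not taken as pairs. The deviations of IL15ko 1 correlated at -0.13 with wild-type 1 and those of IL15ko 2 at 0.21 with wild-type 2. With 2 IL15ko arrays, the deviations of 1 mirror those of the other, so these correlations cannot settle whether the numbers are pairs.

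Leaving out 1 array at a time gave 1 to 373 genes higher and 8 to 411 lower, 0 to 1 members higher and 0 lower. The log2 difference of Irf1 then lay between -0.83 and -0.69, of Irf2 between 0.24 and 0.85, of Irf3 between -0.19 and -0.02, of Irf4 between 1.67 and 1.74, of Irf5 between -0.91 and -0.60, of Irf7 between -0.92 and -0.02, of Irf8 between -0.71 and -0.48 and of Irf9 between -0.36 and -0.23. The lowest counts came without wild-type 1. Where an IL15ko array was left out, the lone one was assumed to vary like the wild-type arrays. Causes of lost calls were not tested beyond the numbers of genes and arrays. The list counts were recomputed under the same alternatives after the data were seen. Signal over background limits Irf5 and the other Irf1 probe.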
